A study of Mus musculus with 10 samples.

Results

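Cytoplasmic ribosomal protein genes encode the structural proteins of the 40S and 60S ribosomal subunits. They were chosen by name: rows whose Ensembl identifier maps to a symbol that starts with Rpl or Rps followed by a digit, or to Rplp0, Rplp1, Rplp2 or Rpsa. Pseudogene symbols with -ps, the Rps6k kinases, Rps19bp1 and Rps27a were left out. Of 60676 rows, 91 met the name rule and 82 of these reached a mean of 5 CPM (a gene's counts scaled to a common library total) over 10 libraries. The 82 were 48 large subunit and 34 small subunit genes. The lowest members were Rps3a2 at 6.60 CPM and Rps3a3 at 8.59 CPM. The highest of those left out, far below the minimum, were Rpl24 at 0.77 CPM and Rpl36al at 0.50 CPM. Other annotated genes covered 47.0% of the exons of Rpl24 and 24.5% of those of Rpl36al, and the part of this in their counts was not tested.

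The libraries came from 2 mouse tumour lines, MC38 (colon adenocarcinoma) and B16 (melanoma). All 10 were made from cells with Sdc1 knocked down and given IFNγ at 10 ng/ml for 24 h, so neither the knockdown nor IFNγ is compared with its absence. In MC38 there were 2 libraries each of the knockdown alone, the knockdown with a c30 mutant and the knockdown with an ect mutant, which the labels do not describe further. B16 gave 2 libraries of knockdown cells and 2 of such cells that also carried wild-type Sdc1. The labels do not say whether the 2 libraries of a group came from separate cultures or whether a line was 1 clone. P-values therefore measure the spread between these libraries, which may be technical.

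Total counts ranged from 11349447 to 15041133. Sdc1, the knocked-down gene, stood at 24.5 and 29.99 CPM in the MC38 knockdown, 97.0 and 99.5 with c30, 22.4 and 25.2 in the libraries labelled ect, 40.7 and 43.1 in the B16 knockdown and 71.1 and 56.9 with wild type. The ect libraries were thus not above their knockdown, and a count per gene does not separate a re-expressed form from the cell's own transcript. The 10 melanocyte markers summed to between 13720 and 14529 CPM in B16 and to between 6.33 and 12.9 CPM in MC38. Of 8 epithelial markers, 1 reached 1 CPM in every MC38 library, so the epithelial label of that line had little marker support. The 11 leukocyte markers summed to at most 4.87 CPM in any library. The wild-type libraries of B16 stood apart from each other: counts of their 16057 genes varied with a chi-square of 17.8 per gene, against 3.53 to 5.63 in the other 4 pairs.

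Each ribosome holds 1 small subunit, which reads the messenger RNA, and 1 large subunit, which joins amino acids and passes the new chain through its exit tunnel. Many ribosomal protein mRNAs begin with a cytosine and a run of pyrimidines, the terminal oligopyrimidine motif, through which mTOR and LARP1 control their translation. The mouse genome also carries many processed pseudogene copies of these short, abundant transcripts, and reads from a parent and a near-identical copy can be counted for either.

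Sequences of parents and copies are shown first because the counts of several genes turn on them. Rps27 (ENSMUSG00000090733.7, chromosome 3), a small subunit protein, and Rps27rt (ENSMUSG00000050621.8, chromosome 9) were identical over 341 aligned bases of their GENCODE M21 transcripts (build GRCm38). The first 90 coding bases, the same letters in both, were as follows.
Rps27 and Rps27rt: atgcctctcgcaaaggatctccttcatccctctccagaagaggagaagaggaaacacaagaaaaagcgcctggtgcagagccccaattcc
Rps10 (ENSMUSG00000052146.17, chromosome 17), a protein of the small subunit head, and its pseudogene Rps10-ps2 (chromosome 16) were 99.0% identical over 496 bases, with 5 mismatches. All 5 lay in the 90 bases from coding base 385 to 474 of Rps10, where capitals mark them.
Rps10: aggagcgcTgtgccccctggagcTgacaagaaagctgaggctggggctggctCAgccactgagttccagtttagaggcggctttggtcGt
Rps10-ps2: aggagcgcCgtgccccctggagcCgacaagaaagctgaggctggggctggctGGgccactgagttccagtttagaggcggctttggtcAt

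Annotated start sites were read from RefSeq promoters of build GRCm38.p6, which held 60 of the 82 genes. The 30-base windows shown run from 20 bases before the start through the first 10 transcribed bases, on the gene's strand, with runs of 6 or more C or T in capitals. They were chosen to show genes that rose in MC38 (Rps6, Rps10, Rps21, Rpl28, Rpl38), a stalk gene (Rplp2) and 2 paralogs (Rpl22l1, Rpl7l1). The windows were at chr4:86857358-86857387 (minus strand) for Rps6, chr17:27635235-27635264 (minus) for Rps10, chr2:180257359-180257388 (plus) for Rps21, chr7:4792945-4792974 (plus) for Rpl28, chr11:114668560-114668589 (plus) for Rpl38, chr7:141447631-141447660 (plus) for Rplp2, chr3:28805488-28805517 (plus) for Rpl22l1 and chr17:46782647-46782676 (minus) for Rpl7l1.
Rps6: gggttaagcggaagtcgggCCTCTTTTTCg
Rps10: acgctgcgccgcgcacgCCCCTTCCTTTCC
Rps21: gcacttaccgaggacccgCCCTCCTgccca
Rpl28: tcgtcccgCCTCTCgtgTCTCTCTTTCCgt
Rpl38: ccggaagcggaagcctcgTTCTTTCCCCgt
Rplp2: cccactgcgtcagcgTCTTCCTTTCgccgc
Rpl22l1: cgtgcgtgcggcgcaagcccgTTCTCTTCC
Rpl7l1: gcccggtgaggctgcgcaagcgcagtagct
A run of 6 or more C or T on the sense strand lay within 20 bases before or after the start in 43 of 60 genes (71.7%). The share was 41.2% of all 27025 genes with a promoter. CCGGAAG, the letters bound by ETS family factors, occurred on either strand of the 300-base promoter in 25 of 60 (41.7%), against 9.93% of all genes. Read on the other strand it is CTTCCGG, whose first letters can lie in a C and T run. Of the windows shown, that of Rpl7l1 held no such run. A match describes letters only, and the shares are over annotated starts.

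Levels of the 82 genes differed over a wide range even per kilobase of transcript (GENCODE M21 lengths, mean over 10 libraries). The median was 523.9 CPM per kb. Rps2, near the messenger RNA entry channel of the small subunit, was highest at 2499 CPM per kb, followed by the stalk protein Rplp1 at 1824.5, Rps18 of the small subunit head at 1659 and the small basic protein Rpl41 at 1433. In all 15 members exceeded 1000 CPM per kb, and 9 lay under 50. The 9 were Rps3a2 at 8.33, Rps3a3 at 10.8, Rpl13a at 16.1, Rps10 at 21.5, Rpl22l1 at 22.3, Rpl23a at 31.7, Rpl35 at 33.3, Rpl6l at 37.2 and Rpl21 at 41.4 CPM per kb. Rps20, at 83.4, rests on a 3706-base principal transcript, so its per-kb level depends on that model.

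Proteins of the ribosome are needed in equal number (those of the stalk apart). For 10 members, other annotated genes covered at least 20% of the exons on either strand, and these 10 had a median of 111.6 CPM per kb against 560.2 in the other 72. Rpl13a, Rpl23a, Rpl35 and Rps10 are among the 10 and among the 9 lowest, while 2 of the 10 exceeded 1000 CPM per kb. For 43 members, more than 50% of the 75-base stretches of the transcript also occurred in annotated transcripts of other genes, overlapping genes included, and for 2 none did. GENCODE M21 lists the members Rpl6l, Rps3a2 and Rps3a3 as processed pseudogenes, and 53.7% of the stretches of Rpl6l also occurred in Rpl6. Across the 82 genes the shared percentage and the level per kb had a Spearman rho of -0.05, as a description. For the percentage of exons covered by other genes the rho was -0.10. The treatment of reads with several matches was not stated in the sources, and the part of read sharing or overlap in these levels was not tested.

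Counts of some parents and copies varied in opposite directions. Rps27 had 143.8 and 128.2 CPM in the MC38 knockdown, 96.4 and 154.0 with c30, 95.0 and 131.2 in the ect libraries, 85.8 and 38.2 in the B16 knockdown, and 139.1 and 136.1 with wild type. Rps27rt had 13.1 and 18.2, 102.8 and 21.4, 88.5 and 31.6, 24.6 and 108.4, and 18.5 and 36.5 CPM in the same order. In each of the 5 groups the library with less Rps27 was the one with more Rps27rt, and the contrast was widest in the c30, ect and B16 knockdown groups. Rps27rt spanned 8.3-fold over the 10 libraries and Rps27 4.0-fold, while their sum spanned 1.8-fold.

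Rpl17, a protein at the rim of the exit tunnel, varied beside its pseudogene Rpl17-ps10. Rpl17 ranged from 97.7 to 306.1 CPM and Rpl17-ps10 from 53.1 to 187.6, and the pseudogene took from 20.1% to 63.7% of the pair. Rpl17 spanned 3.1-fold and the sum of the pair 1.7-fold. Within the c30, ect and B16 wild-type groups the library with less Rpl17 had more Rpl17-ps10. In the knockdown groups of both lines, replicate 1 had more of both rows. Rps10 itself held 9.0 and 6.0 CPM in the MC38 knockdown, 16.4 and 14.4 with c30, 13.0 and 10.4 in the ect libraries, 10.2 and 9.0 in the B16 knockdown and 9.5 and 9.0 with wild type. Its pseudogene Rps10-ps2 held between 61.2 and 131.2 CPM, that is, between 87.2% and 94.3% of the pair. By contrast the splits of Rpl14 with Rpl14-ps1 (26.2% to 30.2% in the copy) and of Rpl23 with Gm9794 (36.7% to 40.4%) were steady.

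**Figure D1:**
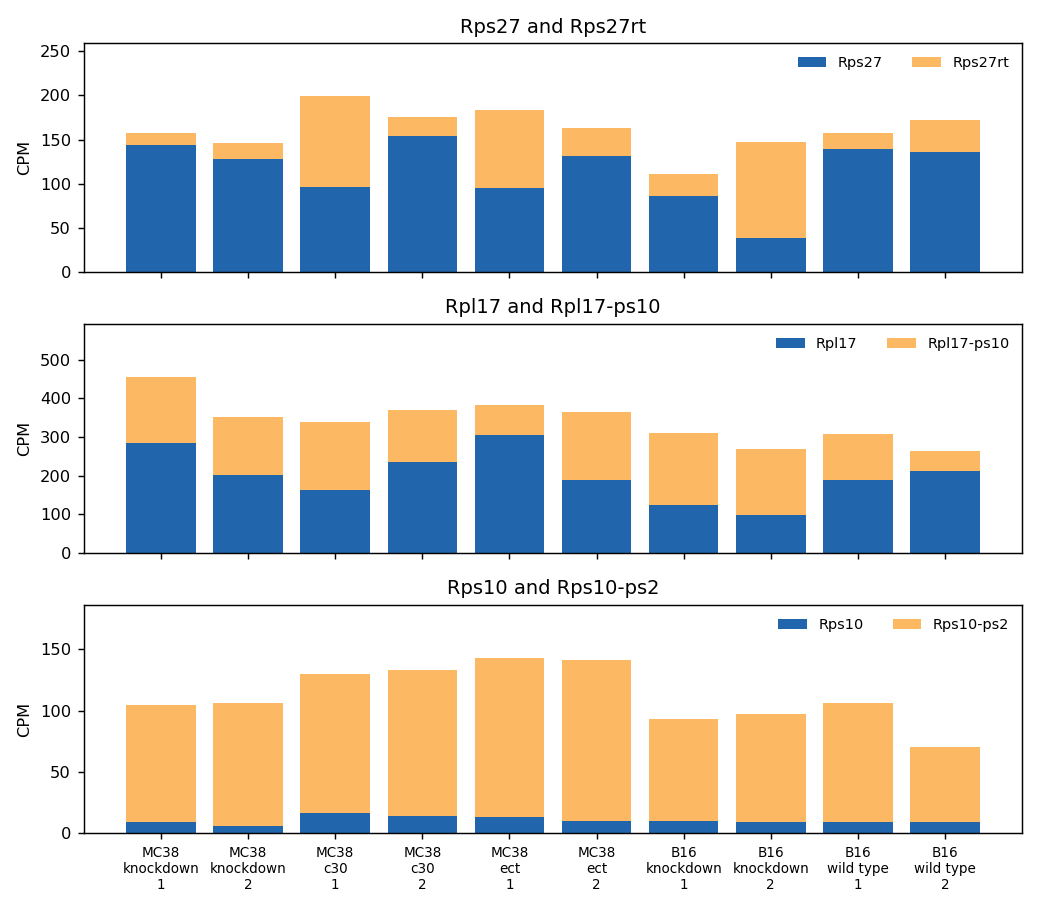
Stacked CPM of 3 genes and a near-identical row, 1 bar per library. Within each group the library with less Rps27 has more Rps27rt, the Rpl17-ps10 part is smallest in ect replicate 1 and B16 wild-type replicate 2, and most counts of the Rps10 pair lie in the pseudogene row.

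In all, 59 members had 296 -ps rows, of which 172 had counts, and for 11 members the -ps rows held more than 10% of the counts of parent plus copies. By these names the largest shares were those of Rps10 (91.1%), Rpl21 (58.4%) and Rpl23a (57.4%). Counting every pseudogene row matched by sequence, whatever its name, 16 members passed 10%, with Rps10 at 91.1%, Rpl23a at 84.4% and Rpl21 at 70.1%. Rpl21 and Rpl23a are both large subunit proteins, the latter at the exit tunnel rim.

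The members together took 4.13% and 3.98% of the counts in the MC38 knockdown libraries. The share was 4.39% and 4.34% with c30, and 4.32% and 4.29% in the ect libraries. In B16 it was 3.64% and 3.75% in the knockdown, and 4.21% and 3.53% with wild type. Both c30 and both ect libraries lay above both knockdown libraries, whereas the wild-type libraries of B16 lay on either side of theirs. The Wilson 95% interval of the first MC38 knockdown library ran from 4.12% to 4.14%, and intervals of this kind cover counting error only. Large subunit genes took between 2.06% and 2.47% and small subunit genes between 1.47% and 1.92%. In bulk RNA, a change in every cell and a change in the mix of cells cannot be told apart.

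**Figure D2:**
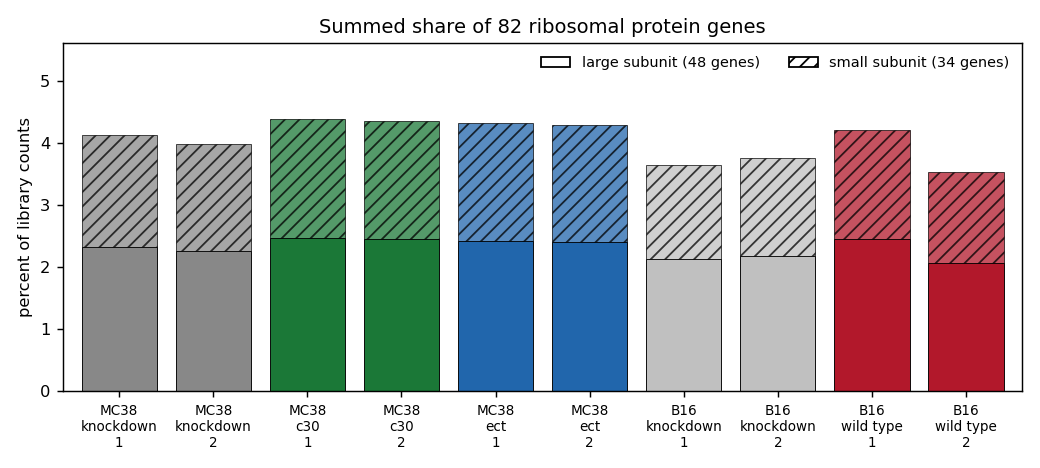
Percent of each library's counts in the 48 large subunit genes (plain) and 34 small subunit genes (hatched), 1 bar per library from 0. The c30 and ect bars reach 4.29% to 4.39%, the MC38 knockdown bars 3.98% and 4.13%, and the B16 wild-type bars 4.21% and 3.53%.

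With the c30 mutant in MC38, ribosomal protein genes were higher by small amounts. Of 82 members, 36 rose and 0 fell (edgeR quasi-likelihood test over 15031 genes, Benjamini-Hochberg adjusted p under 0.05). Over all genes tested, 3.3% were called higher and 4.45% lower. The median log2 fold change of the members was 0.14, or 1.10-fold, against 0.00 over all genes, and 72 were above 0. Both c30 libraries were above both knockdown libraries for 55 members (67.1%, against 23% of all genes) and below them for 2 (against 24.8%). Among the 2402 other genes with a mean of at least 100 CPM, 6.16% were called higher and 10.7% lower.

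Small subunit genes contributed 20 of 34 and large subunit genes 16 of 48. In the head of the small subunit, which turns as the messenger RNA moves on, 11 of 13 rose, with a median log2 fold change of 0.20. Rps20 held 287.1 and 247.8 CPM in the knockdown and 329.2 and 329.8 with c30, and did not overlap (log2 fold change 0.31, SE 0.05, adjusted p = 8.63e-06). Rps15 went from 471.5 and 428.0 CPM to 537.2 and 545.3 (0.27, SE 0.05). Rps28 went from 108.7 and 105.9 to 136.5 and 133.9 (0.34, SE 0.06). For these 3 the groups lay apart. Rps10 had the largest called change (1.03, SE 0.17, adjusted p = 7.49e-06) on the low counts given above. Summed with its -ps rows, where most of its counts lie, the change was 0.30 (SE 0.06) and still called. Rps6, the substrate of S6 kinase, had 883.3 and 870.8 CPM in the knockdown and 981.4 and 965.0 with c30 (0.15, SE 0.04).

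In the large subunit, Rpl37a had the smallest adjusted p of the members. Its levels were 242.7 and 228.6 CPM in the knockdown and 305.0 and 295.0 with c30 (0.35, SE 0.05, adjusted p = 4.69e-08). Rpl38 had 86.7 and 76.7 CPM against 111.3 and 99.2 (0.37, SE 0.06). In neither gene did the groups overlap. Of the stalk, which recruits the elongation factors, Rplp1 rose from 723.9 and 690.4 to 852.6 and 827.8 CPM (0.25, SE 0.04, adjusted p = 1.72e-06) and Rplp0, its base, from 1834.5 and 1872.0 to 1993.6 and 2008.4 (0.12, SE 0.04). Rplp2 had 125.4 and 117.6 CPM against 128.8 and 132.7 and was not called. At the exit tunnel rim 4 of 8 rose: Rpl22, Rpl23a, Rpl26 and Rpl35. Rpl23a had 15.0 and 12.9 CPM against 21.0 and 21.9 (0.62, SE 0.13), a change of 0.35 when its -ps rows were added. Rpl35 had 23.4 and 22.8 against 30.8 and 28.6 (0.36, SE 0.11). Overlapping annotated genes covered at least 20% of the exons of both.

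Of the 4 genes whose products bind Mdm2 when ribosome assembly fails, Rpl5, Rpl11, Rpl23 and Rps27l, 0 were called. Rpl5 had 861.1 and 798.3 CPM in the knockdown and 865.7 and 839.2 with c30, and Rpl11 had 556.3 and 501.4 against 548.8 and 550.4. Rpl23 had 460.2 and 384.6 against 510.5 and 479.8. Rpsa, which is also known as the laminin receptor precursor, had 1441.4 and 1464.3 against 1429.5 and 1438.2, and Rpl13a, a reference gene in many PCR assays, had 18.6 and 15.1 against 19.7 and 17.3. Rpl21 had 23.6 and 23.1 CPM against 52.6 and 59.7 without passing the test (adjusted p = 0.19).

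The libraries labelled ect also held more of these transcripts than the knockdown. There were 33 of 82 members higher and 0 lower, against 3.55% of all genes higher and 4.61% lower. The median log2 fold change was 0.13, and 71 members were above 0. For 49 members (59.8%, against 22.5% of all genes) both ect libraries lay above the knockdown, and for 4 (against 25.9%) below. This comparison uses the same 2 knockdown libraries as that of c30, so both are moved by those libraries in the same direction. Knockdown replicate 2 held the lowest of the 6 MC38 values for 57 of 82 members and replicate 1 for 13.

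Again 20 of 34 small subunit genes rose, including 10 of 13 in the head, and 13 of 48 large subunit genes. Rps19, mutated in Diamond-Blackfan anaemia, had 317.8 and 268.5 CPM in the knockdown and 359.7 and 363.7 in the ect libraries (0.31, SE 0.05, adjusted p = 7.42e-05). Rps12 had 215.7 and 192.3 against 253.8 and 234.3 (0.27, SE 0.05), and Rps21 had 132.9 and 113.0 against 159.2 and 146.3 (0.32, SE 0.06). The groups of these 3 did not overlap. Rps15 rose by a log2 fold change of 0.27 (SE 0.05) to 564.6 and 514.2 CPM. Rps10 rose by 0.63 (SE 0.18), and by 0.41 (SE 0.06) with its -ps rows.

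Rpl38 had the smallest adjusted p among members, with 110.2 and 107.1 CPM (0.42, SE 0.06, adjusted p = 4.07e-07). Rpl36 went from 155.8 and 147.9 to 188.8 and 185.5 CPM (0.31, SE 0.05), and Rpl37a reached 289.0 and 277.0 CPM (0.28, SE 0.05). In the stalk, Rplp1 reached 826.8 and 840.0 CPM (0.25, SE 0.04) and Rplp2 154.6 and 131.6 (0.24, SE 0.06), while Rplp0, at 1922.4 and 2028.4, missed the threshold (adjusted p = 0.05395). At the tunnel rim Rpl22 (0.19, SE 0.05) and Rpl23a rose, the latter by 0.61 (SE 0.13), or 0.28 with its -ps rows. Of the Mdm2-binding genes 0 of 4 were called.

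**Figure D3:**
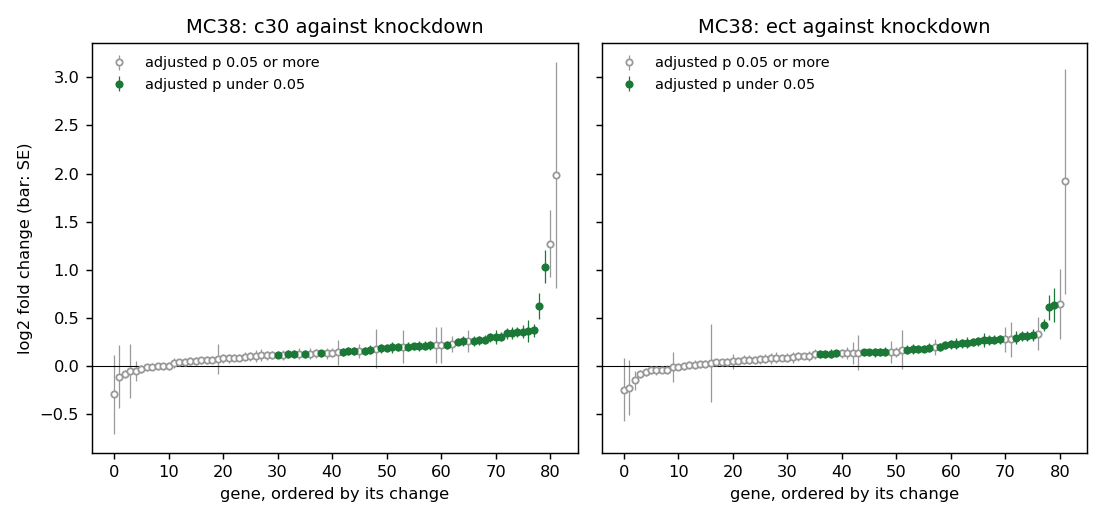
Log2 fold change of each of the 82 genes, ordered separately in each panel, for c30 (left) and ect (right) against the MC38 knockdown, with standard errors. Filled points are the 36 and 33 called genes, all above 0. Wide bars include that of Rps27rt, whose transcript shares sequence with Rps27.

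Measures outside the ribosome moved as well. Among genes that are no members, the 1919 with transcripts under 1000 bases had a median log2 fold change of 0.08 with c30 and 0.07 with ect, against -0.02 and -0.01 for the 5702 over 3000 bases. Of those short genes 3.96% and 4.01% were called higher. Within the 82 members, length and log2 fold change had a Spearman rho of -0.35 in both comparisons, as a description over genes of the same libraries. Rows with no symbol took 2.32% and 1.92% of counts in the knockdown, 2.32% and 3.65% with c30, and 4.18% and 2.76% in the ect libraries. Corrected for length and GC content, 32 members were called higher and 1 lower (Rps14) with c30, and 29 higher and 2 lower (Rpl10 and Rps14) with ect. The members' medians were then 0.11 and 0.08, and over all genes 4.83% and 4.96% were called higher and 4.91% and 5.11% lower. The part of transcript length and RNA quality in the remainder was not tested.

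The counts of calls changed with the libraries that were fitted. When all 10 libraries shared 1 estimate of the spread, 1 member (Rps10) was called higher with c30 and 0 with ect, at medians of 0.14 and 0.13. Over all genes that fit called 0.379% and 0.385% higher. Without c30 replicate 1 or 2 the c30 count was 22 or 19, and without ect replicate 1 the ect count was 20. Over all genes those fits called 1.10%, 1.00% and 1.90% higher. Without knockdown replicate 2, the lower of the 2, the counts were 25 higher and 1 lower (Rps14) with c30, and 22 higher and 2 lower (Rpl39 and Rps14) with ect. The members' medians were then 0.10 and 0.08, and over all genes 2.01% and 2.35% were called higher and 2.98% and 3.25% lower.

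Between the mutants, 0 of 82 members were called (edgeR, c30 against ect), against 0.133% of all genes higher in c30 and 0.166% lower. At an unadjusted p under 0.05 there were 9 members, against 8.72% of all genes. DESeq2 called 0 and limma-voom 1, the latter against 0.106% of all genes higher. The median log2 difference was 0.02, and the median standard error of a member was 0.05. The smallest p belonged to Rpl19, a protein near the tunnel exit, with 349.6 and 362.2 CPM in c30 and 327.2 and 298.8 in ect (0.18, SE 0.05, adjusted p = 0.069). Rpl12, Rps20, Rps7 and Rps10 followed, at differences of 0.10, 0.13, 0.13 and 0.40 and adjusted p between 0.364 and 0.407. With its -ps rows Rps10 differed by -0.11. A p over the threshold does not show that the mutants act alike on these genes.

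Other genes of ribosome production also rose in MC38. Assembly factors modify and cut ribosomal RNA and build the subunits in the nucleolus. With c30, 15 of 42 of them rose and 0 fell (median log2 fold change 0.17), and with ect 25 of 42 rose and 0 fell (0.19). Examples with c30 and ect were Ncl, nucleolin (0.15 and 0.19), Nop56 of the box C/D particle (0.21 and 0.15), Dkc1, the pseudouridine synthase (0.22 and 0.23), and Tsr1 of late small subunit assembly (0.27 and 0.27). Of 16 tested genes of RNA polymerase I, which transcribes ribosomal RNA, 4 rose with c30 (Polr1c, Polr2e, Rrn3 and Taf1d) and 2 with ect (Polr1c and Taf1a), and 0 fell.

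Of 29 translation factors and other transcripts known for the pyrimidine motif, 6 rose and 0 fell with c30, and 9 rose and 1 fell (Eif3e, -0.15) with ect. Among them Gas5, a non-coding host of small nucleolar RNAs, rose by 0.26 and 0.36, and Pabpc1, the poly(A)-binding protein, by 0.14 and 0.19. Of 21 regulators (mTOR, LARP1, MYC and their partners), 1 rose with c30 (Larp1, 0.15), 1 rose with ect (Myc, 0.23) and 0 fell. The medians of this list were -0.002 and 0.007, so it did not move as a set. Of 78 mitochondrial ribosomal protein genes, 4 rose with c30 (Mrps7, Mrpl21, Mrpl22 and Mrpl37), 1 rose with ect (Mrps17) and 0 fell, at medians of 0.09 and 0.08. These shares stand beside the 3.3% and 3.55% of all genes called higher.

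In B16, wild-type Sdc1 changed 0 of 82 members by the edgeR test, as it did 0 of 14336 genes (0% in either direction). At an unadjusted p under 0.05 there were 16 members, among 5.52% of all genes. DESeq2 called 3 members higher, against 0.0145% of all genes, and limma-voom 0. The median log2 fold change was 0.11, with 69 members above 0, and for 23 members (28.0%, against 13.9% of all genes) the wild-type pair was entirely above the knockdown pair. For 0 it was entirely below (against 21.1%).

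The wild-type libraries went different ways. Replicate 1 held the highest of the 4 B16 values for 69 of 82 members, while replicate 2 held the lowest for 35. Rplp1 had 970.0 and 1143.4 CPM in the knockdown and 1328.5 and 901.1 with wild type, so its wild-type libraries enclosed those of the knockdown. Rps2 did the same, with 1697.9 and 1733.3 against 1830.8 and 1322.1. Without replicate 2, 43 members were called higher and 0 lower, at a median of 0.22, against 1.18% of all genes higher and 0.99% lower. Without replicate 1, 10 were higher and 14 lower, at a median of 0.00, against 4.01% and 4.58% of all genes. Replicate 2 also had more counts in mitochondrially encoded genes (1.79%, against 1.29% to 1.40% in the other B16 libraries) and in rows with no symbol (4.18%, against 1.83% to 2.79%). Their part in the result was not tested.

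**Figure D4:**
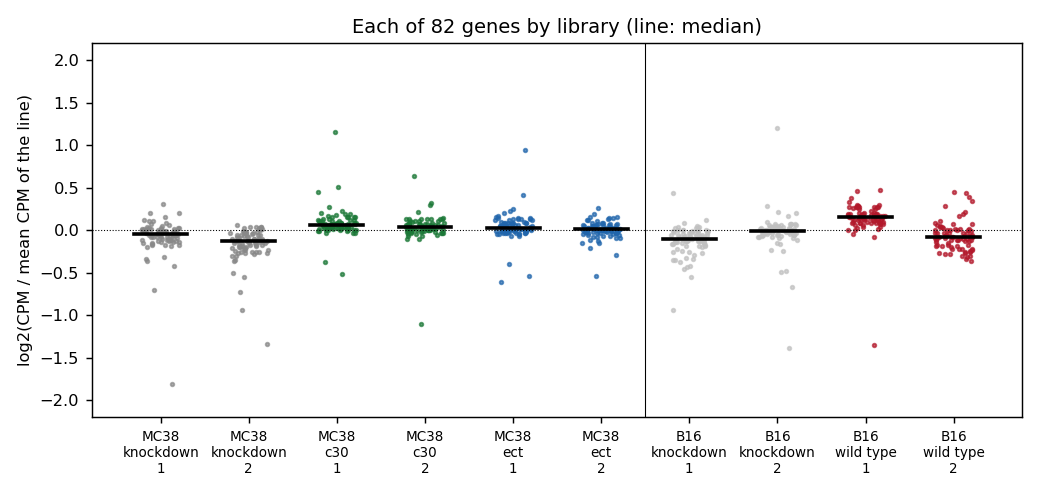
Each point is 1 of the 82 genes in 1 library, as the log2 ratio of its CPM to its mean over the libraries of that line, with the median as a bar (MC38 left of the vertical line, B16 right). Medians are -0.05 and -0.13 in the MC38 knockdown and 0.07 and 0.04 with c30, while the B16 wild-type medians are 0.15 and -0.08.

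The smallest p-values in B16 belonged to Rpl17, Rpl29, Rpl39, Rps27l and Rpl35. Rpl29, which in other settings has been described as a heparin-binding protein, had 178.3 and 179.6 CPM in the knockdown and 246.6 and 236.1 with wild type (log2 fold change 0.46, SE 0.08, adjusted p = 0.269). Rpl39, at the tunnel exit, had 191.0 and 203.8 against 250.4 and 316.0 (0.55, SE 0.11, adjusted p = 0.291). Rpl35 had 33.0 and 37.4 against 44.9 and 42.6 (0.34, SE 0.11). In these 3 the groups did not overlap. Rpl17 had the smallest p, at 124.1 and 97.7 CPM against 188.2 and 210.9 (0.87, SE 0.12, adjusted p = 0.11). Summed with its -ps rows the change of Rpl17 was 0.02 (SE 0.10). Rps27 was not called, with 85.8 and 38.2 against 139.1 and 136.1 CPM and a standard error of 0.49.

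The effect of wild-type Sdc1 in B16 was tested directly against that of each mutant in MC38. Line and form of Sdc1 change together in these tests and cannot be told apart. By edgeR, 0 members differed between the wild-type effect in B16 and the c30 effect, and 0 from the ect effect, against 0.148% and 0.284% of all genes higher and 0.136% and 0.201% lower. At an unadjusted p under 0.05 there were 4 and 6 members, against 10.4% and 10.7% of all genes, and DESeq2 and limma-voom called 0 in both. The nearest were Rps10 against c30 (-1.06, SE 0.27, adjusted p = 0.102) and Rpl6l against ect (0.49, SE 0.16, adjusted p = 0.204). Rps10 stood at -0.36 when its -ps rows were added. Without B16 wild-type replicate 1, the effect in B16 was called lower for 26 members against c30 and for 23 against ect, and higher for 0 and 3. Over all genes these fits called 3.25% and 3.61% lower and 2.84% and 2.88% higher. Without replicate 2 it was called higher for 3 and 6, against 1.31% and 1.51% of all genes, and lower for 1 and 0, against 0.763% and 0.846%.

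Between the knockdown cells of the 2 lines, single members differed in both directions. In B16, 17 members were higher and 23 lower than in MC38 (20.7% and 28.0%), and over all 16877 genes 33.8% were higher and 34.3% lower. Both B16 libraries were above both MC38 libraries for 26 members (against 40% of all genes) and below them for 33 (against 44.4%). The median log2 difference was 0.00 after TMM scaling, while the summed share of counts was lower in B16, as given above. Called members ran from -1.21 to 1.03. The largest difference, 2.11, was that of Rps27rt, which shares sequence with Rps27 and was not called. Its counts were 13.1 and 18.2 CPM in MC38 and 24.6 and 108.4 in B16. Line, culture and clone cannot be told apart here.

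Lower in B16 were Rpl36a, an X-linked large subunit gene, with 239.1 and 222.8 CPM in MC38 and 92.7 and 101.2 in B16 (log2 difference -1.21, SE 0.07, adjusted p = 8.50e-15). Rps6 had 883.3 and 870.8 against 584.6 and 556.0 (-0.58, SE 0.07), and Rps2 had 2945.2 and 2891.4 against 1697.9 and 1733.3 (-0.73, SE 0.11). Rpl34 had 282.4 and 259.6 against 160.9 and 180.2 (-0.63, SE 0.08), and Rpl13 had 765.6 and 829.9 against 488.7 and 539.6 (-0.59, SE 0.08). In these 5 the lines did not overlap. Rps4x, Rps18 and Rpl5 were lower by between -0.43 and -0.46. Rpl17 differed by -1.09 (SE 0.35), and by -0.39 (SE 0.08) with its -ps rows.

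Higher in B16 was Rpl32, with 369.6 and 380.3 CPM in MC38 and 676.9 and 722.9 in B16 (0.94, SE 0.07, adjusted p = 3.07e-12). Rps29, a zinc-binding protein of the head, had 94.7 and 90.7 against 133.0 and 160.1 (0.70, SE 0.13), and Rps26 had 255.4 and 258.4 against 345.7 and 370.4 (0.52, SE 0.07). Rpl29 had 124.2 and 130.6 against 178.3 and 179.6 (0.53, SE 0.08). The lines lay apart in all 4. Rpl35, Rps25 and Rps13 were higher by 0.64, 0.32 and 0.31. Members of 1 complex parted: in the stalk Rplp0 was lower (-0.40, SE 0.08) and Rplp1 higher (0.62, SE 0.18), and of the Mdm2-binding genes Rpl5 (-0.43) and Rpl11 (-0.35) were lower and Rps27l (1.03) higher.

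**Figure D5:**
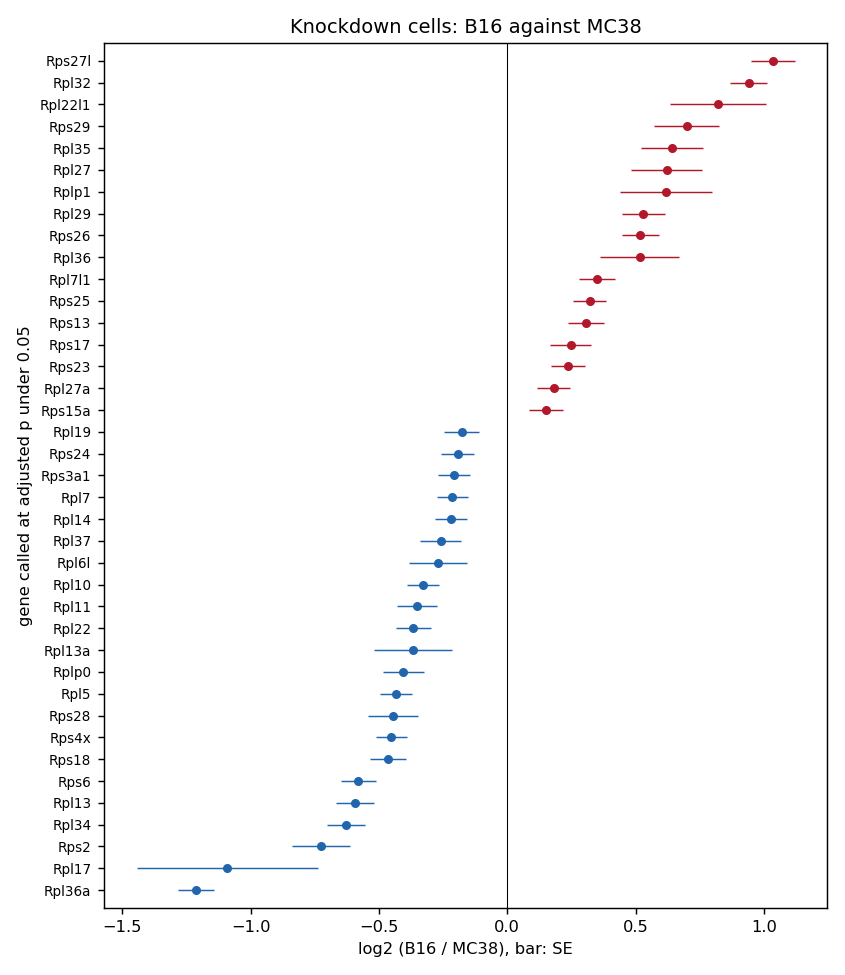
Log2 difference, B16 over MC38, of the genes called between the knockdown cells of the lines, with standard errors and with 1 called gene not drawn. Those above 0 run from Rps15a at 0.15 to Rps27l at 1.03, and those below 0 from Rpl19 at -0.18 to Rpl36a at -1.21.

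Of the 4 listed paralogs, 3 were higher in B16 (Rps27l, Rpl22l1 and Rpl7l1), beside 33.8% of all genes. Rpl6l, which is not in that list but pairs with Rpl6, was called lower in B16. Rps27l, a p53 target that can stand in for Rps27, had 80.6 and 64.1 CPM in MC38 knockdown cells and 141.6 and 147.0 in B16 (1.03, SE 0.09, adjusted p = 2.25e-11). Rps27 itself had 143.8 and 128.2 against 85.8 and 38.2 and was not called (adjusted p = 0.077). Rpl22l1, the paralog of Rpl22, had 10.2 and 6.7 against 12.8 and 16.4 (0.82, SE 0.19), while Rpl22 had 340.1 and 305.1 against 234.0 and 253.1 (-0.37, SE 0.07). Rpl7l1 had 126.6 and 116.6 against 153.2 and 148.0 (0.35, SE 0.07), and Rpl7 1186.5 and 1152.4 against 999.3 and 961.4 (-0.21, SE 0.06). Over all libraries of a line, per kb of transcript, Rpl22l1 made up 1.85% to 2.52% of its pair in MC38 and 4.50% to 6.46% in B16. Rpl7l1 made up 8.25% to 8.94% in MC38 and 11.9% to 12.4% in B16, so neither range overlapped between the lines. The share of Rpl6l in its pair did overlap, at 4.58% to 5.56% in MC38 and 4.26% to 6.26% in B16. The Rps27l share of its pair depends on Rps27 counts, which varied opposite to those of Rps27rt. Of the transcript of Rpl22l1, 49.6% of 75-base stretches also occurred at other loci, against 4.21% for Rpl7l1. With the mutants or with wild-type Sdc1, 0 of the 4 paralogs (Rpl7l1, Rpl22l1, Rps27l and Rps27rt) were called.

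Other genes of ribosome production differed between the lines in both directions. Of 42 assembly factors 10 were higher and 19 lower in B16, and of 29 translation factors and related transcripts 4 were higher and 14 lower. Of 78 genes for mitochondrial ribosomal proteins, 33 were higher and 8 lower, at a median of 0.19. These counts stand beside the 33.8% of all genes called higher and the 34.3% called lower.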

How the data were processed

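Cultured mouse tumour cells were profiled with a messenger RNA kit and paired-end sequencing, per the labels' protocols. The authors deposited raw counts for 10 libraries in 1 table of 60676 rows, of which 51884 could be given a symbol by Ensembl identifier. The submitters' processing notes name HISAT2 2.0.5 and build GRCm39, beside Trimmomatic, featureCounts, HTSeq and DESeq2. Their order, the annotation release, strand use and the handling of reads with several matches are not given in the sources used here. Libraries held between 11349447 and 15041133 counts. For a gene at 0, the expected count may have been up to 3, or 0.199 to 0.264 CPM.

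All genes were fitted with edgeR 4.0.16 in R 4.3.3 (filterByExpr, TMM, robust quasi-likelihood, 2-sided). The 6 MC38 libraries formed 1 fit, the 4 B16 libraries another, and the comparison of lines and the differences of effects used all 10. Benjamini-Hochberg adjustment ran over all genes tested, with calls at an adjusted p under 0.05. Library values are CPM of the total. Shared stretches and lengths came from GENCODE M21 (GRCm38), using the shortest principal transcript, and alignments were made with Biopython 1.88. Intervals cover counting error only.

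Members and lists were chosen with earlier results of these data known. Named genes in each comparison were up to 8 called members with the smallest adjusted p and up to 4 with the largest change each way, or the 5 smallest p where fewer than 5 were called. Stalk, Mdm2-binding, paralog, Rps6, Rpsa, Rpl13a, most copied and most variable members were added. Other genes named for a small count, an example or a level, and the groups cut at 100 CPM and by length, were chosen after their values were seen. Alternatives were RLE factors, no filter, DESeq2 1.42.0, limma-voom 3.58.1, a replicate block, scaling without members, a length and GC correction (mgcv 1.9.3), sums with -ps rows, leaving out each library and other sets of libraries. Sums with sequence-matched pseudogene rows and a crossed block were chosen after seeing the data. The fits were tested on simulated data. Values of some members are not reported here, although all 82 enter the counts and medians.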

Additional observations from a re-analysis of the deposited data

How the results depend on the processing

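Groups of 2 libraries limited the precision: in the c30 comparison the median standard error of a member was 0.05. That of Rps27rt, whose transcript shares sequence with Rps27, was 1.17. RLE factors and scaling without members left the member counts within 1.5 times of those reported. DESeq2 called 31 members higher with c30 and 22 with ect, against 0.473% and 0.543% of all genes. Of these members 29 and 21 were also called in the main fits. No filter called 31 and 26, against 1.12% and 1.26% of all genes, and limma-voom 40 and 37, against 2.67% and 3.28%. Leaving out 1 library gave 19 to 45 members higher and 0 to 1 lower with c30, and 20 to 40 higher and 0 to 2 lower with ect. For c30 against ect it gave 0 to 2 higher, for B16 wild type 0 to 43 higher and 0 to 14 lower, and between the lines 11 to 16 higher, the 11 being without MC38 knockdown replicate 2. For the difference of the B16 effect from that of c30, leaving out 1 library gave 0 to 3 higher and 0 to 26 lower. From that of ect it gave 0 to 6 higher and 0 to 23 lower. Shares of all genes for these extremes are given above.

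With all 10 libraries in 1 fit, 1 member was higher with c30, 0 with ect and 1 (Rpl29) in B16. Over all genes that fit called 0.379%, 0.385% and 0.0237% higher. The length and GC correction called 1 member lower with c30 and 2 lower with ect, against 4.91% and 5.11% of all genes. It called 1 higher for c30 against ect (0.275% of all genes) and 1 higher in B16 (0.0373%). Between the lines it called 27 higher and 24 lower, against 38.7% and 32.4% of all genes. Against the c30 effect it called 1 lower (0.642% of all genes) and against the ect effect 1 higher (1.26%). For c30 against ect, limma-voom called 1 higher, sums with -ps rows 1, and sums with sequence-matched pseudogene rows 2. Over all genes these fits called 0.106%, 0.174% and 0.182% higher. In B16, no filter and DESeq2 each called 3 higher (Rpl17, Rpl29 and Rpl39), against 0.0470% and 0.0145% of all genes. With no filter 1 member was higher and 1 lower (Rps10) against the c30 effect, and 1 higher against the ect effect. Over all genes no filter called 0.311% higher and 0.155% lower against the c30 effect, and 0.358% higher against the ect effect. Apart from the length and GC correction and the sums, whose construction changes the values, the cause was not tested. The difference of Rps10 between c30 and ect turned from 0.40 to -0.11 with either kind of sum.

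Over all genes tested, same-numbered libraries did not deviate together (correlations of -0.01 to 0.01 in MC38 and -0.11 in B16), so the numbers were not taken as pairs. The members' summed share was higher in replicate 1 in every MC38 group and in B16 wild type, and lower in the B16 knockdown. With the replicate number as a block, 40 members were higher with c30, 35 with ect and 2 (Rpl17 and Rpl39) in B16, where a crossed block called 1. Over all genes the block called 3.37%, 3.64% and 0.0419% higher, and the crossed block 0.00698%. With -ps rows the summed share was 4.18%, 4.50%, 4.44% and 3.81% in the MC38 knockdown, c30, ect and B16 knockdown groups. Without mitochondrial genes and rows with no symbol in the total it was 4.20%, 4.56%, 4.52% and 3.83%. At a minimum of 1 or 10 CPM there would be 82 or 80 members.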
